A study of Mus musculus with 12 samples.

Results

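Expression of 8 genes of cystine uptake, transsulfuration and glutathione synthesis was examined in RNA-seq data of mouse embryonic fibroblast (MEF) cells. The genes are Slc7a11, Cth, Cbs, Mpst, Gclc, Gclm, Gss and Gsr, taken by symbol, and all 8 were listed among the 43280 entries of the table for the mutant IDH2 experiment and the 23930 entries of the table for the 2-HG experiment. They were chosen by name and function, but also selected on measured values, since the fold changes of both comparisons were known when the set was drawn up and Slc7a11 and Cth stood among the largest increases with 2-HG. Their own changes are therefore given as a description, with estimates and intervals from the fit over all genes and no p-value. All groups were spontaneously immortal fibroblasts, derived from day 13.5 embryos of the strain C57BL/6. 2MUT cells stably expressed a FLAG-tagged human IDH2 with a cancer-associated mutation. They were made by retroviral transduction, the Control cells by transduction with the empty vector, and both were then selected with puromycin. 2-HG(+) cells were exposed to 300 μM of 2-HG, described in the paper as membrane-permeant and listed there as the octyl form, for 24 h. The 2-HG(-) cells received DMSO for the same 24 h according to the sample labels, whereas the paper calls them non-treated. Each of the 4 groups had 3 libraries. The sources do not say whether these came from separate cultures, so the errors and p-values describe the spread between libraries, which may be technical.

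Cysteine limits the synthesis of glutathione, the main small thiol of the cell. Cells import it as the oxidized dimer cystine through system xc-, in which xCT, encoded by Slc7a11, exports glutamate in exchange. Alternatively they make it from homocysteine by transsulfuration, in which cystathionine β-synthase (Cbs) forms cystathionine and cystathionine γ-lyase (Cth) splits it. Glutamate-cysteine ligase, with its catalytic subunit Gclc and modifier subunit Gclm, then forms γ-glutamylcysteine, glutathione synthetase (Gss) adds glycine, and glutathione reductase (Gsr) returns the oxidized form to glutathione with NADPH. Mercaptopyruvate sulfurtransferase (Mpst) uses cysteine-derived sulfur instead. In fibroblasts, Slc7a11 and Cth are well-known targets of the amino acid response factor ATF4, and Slc7a11, Gclc, Gclm and Gsr are well-known targets of the oxidant-sensing factor NRF2.

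The libraries of the mutant IDH2 experiment held 6472439 to 7313602 reads on genes, and those of the 2-HG experiment 14959318 to 18363768. Values are RPM, reads of a gene per 1000000 reads counted in that library, so 3 reads correspond to 0.41 to 0.464 RPM in the first table and to 0.163 to 0.201 RPM in the second. Each gene was read through a short amplified target, and the tables were normalized separately. RPM are therefore compared only for the same gene within a table. Summed fibroblast markers were lower in 2MUT (7019 to 7707 RPM) than in Control (10497 to 11488 RPM), and lower in 2-HG(+) (13492 to 14732 RPM) than in 2-HG(-) (19612 to 21144 RPM). These sums are mostly collagen. Thy1 went the other way with 2-HG, from 2.61 to 3.00 RPM to 4.31 to 6.88 RPM, and Vim overlapped between 2-HG(-) and 2-HG(+). In 2MUT both were lower as well. Vim measured 2885 to 3497 RPM in Control and 1215 to 1343 RPM in 2MUT, and Thy1 77.4 to 82.1 RPM and 18.9 to 28.0 RPM. Of these markers, Fap was at or near 0 in both tables and S100a4 in the first, the table in which it was listed. Summed markers of epithelial, endothelial, haematopoietic, skeletal muscle and neural cells reached at most 13.5 RPM each, with Epcam, Krt18, Ptprc and Myod1 at or near 0. Neural markers rested on Tubb3, which moved from 1.27 to 1.69 RPM in 2-HG(-) to 5.36 to 6.27 RPM in 2-HG(+). In the first table Tubb3 moved from 7.69 to 10.8 RPM in Control to 11.1 to 13.5 RPM in 2MUT. The haematopoietic marker Cd68 was lower with 2-HG, at 7.67 to 9.6 RPM against 11.0 to 13.4 RPM, and overlapped between Control and 2MUT. The part of these shifts in the results was not tested. Control replicate 3 and 2-HG(+) replicate 1 stood farthest from the other libraries of their tables. Fold changes without them are given after the gene by gene account.

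Slc7a11 lies on the minus strand of mouse chromosome 3, chr3:49892526-50443614 in GRCm38, and Gclm on its plus strand at chr3:122245557-122270732. Their upstream sequences are shown because these genes stand for the behaviours seen among the 8, a large difference with 2-HG and a moderate difference in both experiments. The 250 bases before each RefSeq start site (GRCm38.p6) are given 5′ to 3′ on the strand of the gene, chr3:50443614-50443863 for Slc7a11 and chr3:122245307-122245556 for Gclm. Capitals mark the core of the amino acid response element, TGATGNAA, in the first and that of the antioxidant response element, TGACNNNGC, in the second, either as written or as the reverse complement.
Slc7a11: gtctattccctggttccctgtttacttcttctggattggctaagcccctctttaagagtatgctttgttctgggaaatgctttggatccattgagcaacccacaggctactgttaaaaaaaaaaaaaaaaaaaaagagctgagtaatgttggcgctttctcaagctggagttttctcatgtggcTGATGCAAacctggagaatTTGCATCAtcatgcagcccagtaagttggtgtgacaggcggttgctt
Gclm: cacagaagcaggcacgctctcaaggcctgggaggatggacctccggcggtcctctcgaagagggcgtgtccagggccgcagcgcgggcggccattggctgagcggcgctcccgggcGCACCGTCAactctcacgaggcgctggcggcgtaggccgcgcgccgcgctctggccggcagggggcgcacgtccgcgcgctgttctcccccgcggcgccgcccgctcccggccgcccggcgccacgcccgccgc
In Slc7a11, TGATGCAA occupies positions -66 to -59 and TTGCATCA positions -47 to -40 relative to the start. In Gclm, GCACCGTCA occupies positions -134 to -126. Of 32851 mouse windows of 250 bases, 10.2% held at least 1 core of the antioxidant type, 3.45% held at least 1 core of the amino acid type, and 13 windows (0.0396%) held 2 or more of the latter. RefSeq windows were at hand for 5 of the 8 genes. No core of either type was in the windows of Gss and Cbs, and 1 of 3 Mpst windows held an antioxidant core. Windows for Cth, Gclc and Gsr were not used here. A match describes letters and not occupancy, and no binding was measured.

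RNA of the cystine transporter overlapped between groups in one experiment and not in the other. Slc7a11 measured 2.22, 2.28 and 0.957 RPM in the Control libraries and 2.63, 1.61 and 3.44 RPM in 2MUT. These ranges overlap, and they rest on 7 to 25 reads per library. In the 2-HG experiment, Slc7a11 measured 25.6, 35.3 and 33.5 RPM in 2-HG(-) and 235, 254 and 201 RPM in 2-HG(+). Every treated library lay far above every DMSO library. Mean RPM was 31.5 ± 5.13 (SD, n = 3) against 230 ± 26.9 (SD, n = 3), a ratio of 7.30. On the log2(RPM + 1) scale, which understates changes of low genes, the fold change with 2-HG was 2.83 (SE 0.14, 95% interval 2.52 to 3.15), rank 5 from the top among 10384 genes tested. In 2MUT it was 0.34 (SE 0.29, 95% interval -0.30 to 0.99), with 0.10 without Control replicate 3, the library with the lowest value, 0.17 without 2MUT replicate 3 and 0.55 without 2MUT replicate 2. With edgeR, DESeq2 or an added value of 0.1 it was 0.50.

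**Figure D1:**
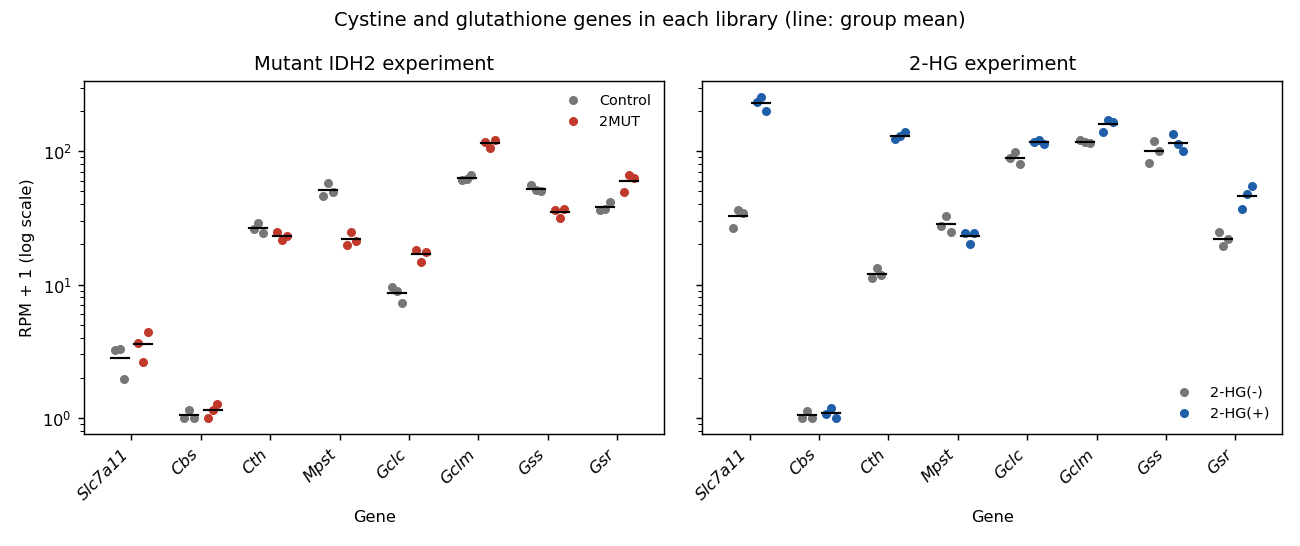
RPM + 1 on a log axis for each of the 8 genes in each library, with Control and 2MUT on the left, 2-HG(-) and 2-HG(+) on the right, and a line at each group mean. Slc7a11 and Cth separate the 2-HG groups by the widest gaps, while both overlap between Control and 2MUT, and Cbs lies at the bottom of both panels.

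The transsulfuration pathway was represented by Cth. In Control, Cth (chr3:157894248-157925077, minus strand) measured 25.2, 28.2 and 23.4 RPM, and in 2MUT it measured 23.6, 20.5 and 22.3 RPM. The ranges touch at Control replicate 3 and 2MUT replicate 1. In 2-HG(-) it measured 10.2, 12.3 and 10.8 RPM, against 123, 130 and 138 RPM in 2-HG(+). All treated libraries thus exceeded all DMSO libraries, with means of 11.1 ± 1.09 and 130 ± 7.57 RPM (SD, n = 3 each) and a ratio of 11.7. The log2 fold change with 2-HG was 3.44 (SE 0.11, 95% interval 3.19 to 3.69), rank 2 of 10384 from the top. In 2MUT it was -0.20 (SE 0.14, 95% interval -0.51 to 0.11).

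Cbs (chr17:31608894-31637238, minus strand), which catalyses the step before Cth, gave 4 reads among 41662231 in the mutant IDH2 experiment and 6 among 97041255 in the 2-HG experiment. No library had more than 3 reads, so it fell below the filter on low values of the main fit and no fold is given. Its level cannot be read as absence, because genes used by nearly every cell, such as Gpx4 and Glo1, were also listed at 0 in all 6 libraries of the first table. These 2 were named after their values were seen. A failed target and a silent gene cannot be told apart here.

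Mpst (chr15:78406416-78414013, plus strand), which turns mercaptopyruvate into pyruvate and a persulfide, measured 44.8, 56.6 and 48.7 RPM in Control and 18.7, 23.9 and 20.4 RPM in 2MUT. All 2MUT libraries were below all Control libraries, at 20.97 ± 2.64 against 50.02 ± 5.97 RPM (SD, n = 3 each), a ratio of 0.419. This was the largest difference in 2MUT among the 7 genes above the filter on low values, with a log2 fold change of -1.22 (SE 0.15, 95% interval -1.54 to -0.90). In 2-HG(-) it measured 26.5, 31.9 and 23.8 RPM, and in 2-HG(+) 23.5, 19.2 and 23.3 RPM. The groups barely separate there, and the interval of the log2 fold change, -0.62 to 0.02 around -0.30 (SE 0.14), includes 0.

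Both subunits of glutamate-cysteine ligase, which performs the rate-limiting step of glutathione synthesis, were higher in 2MUT. Gclc (chr9:77754535-77794485, plus strand) measured 8.58, 7.98 and 6.29 RPM in Control and 17.2, 13.8 and 16.7 RPM in 2MUT. The groups do not overlap, and the means of 7.62 ± 1.19 and 15.9 ± 1.83 RPM (SD, n = 3 each) give a ratio of 2.08 and a log2 fold change of 0.97 (SE 0.18, 95% interval 0.57 to 1.37). Gclm measured 60.2, 61.4 and 65.2 RPM in Control and 116, 104 and 120 RPM in 2MUT. These too are separate, at 62.3 ± 2.61 and 114 ± 8.20 RPM (SD, n = 3 each), a ratio of 1.82 and a log2 fold change of 0.85 (SE 0.11, 95% interval 0.62 to 1.09).

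With 2-HG the estimated log2 fold changes of the same subunits were smaller. Gclc measured 87.7, 97.7 and 79.7 RPM in 2-HG(-) and 117, 122 and 111 RPM in 2-HG(+), a ratio of 1.32 and a log2 fold change of 0.40 (SE 0.10, 95% interval 0.17 to 0.63). Gclm measured 121, 116 and 114 RPM in 2-HG(-) and 137, 172 and 164 RPM in 2-HG(+), a ratio of 1.35 and a log2 fold change of 0.42 (SE 0.11, 95% interval 0.18 to 0.66). Treated libraries were above DMSO libraries for both. With 1 library left out, the log2 fold change ranged from 0.33 to 0.47 for Gclc and from 0.36 to 0.52 for Gclm.

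Gss (chr2:155563181-155592810, minus strand), which completes glutathione, went the other way in 2MUT. It measured 55.04, 50.1 and 49.4 RPM in Control and 35.2, 30.3 and 36.1 RPM in 2MUT. All 2MUT libraries were lower, at 33.9 ± 3.11 against 51.5 ± 3.08 RPM (SD, n = 3 each), a ratio of 0.657 and a log2 fold change of -0.59 (SE 0.13, 95% interval -0.87 to -0.32). In the 2-HG experiment it measured 80.2, 118 and 99.8 RPM in 2-HG(-) and 133, 113 and 99.8 RPM in 2-HG(+), so the groups overlap, with a log2 fold change of 0.22 (SE 0.15, 95% interval -0.13 to 0.57). It was 0.08 without 2-HG(-) replicate 1, 0.11 without 2-HG(+) replicate 1 and 0.35 without 2-HG(-) replicate 2. Gss overlaps Acss2 on the opposite strand, which measured 11.6 to 22.2 RPM in the first table and 18.97 to 23.4 RPM in the second. Whether counting used strand is not given in the sources used here.

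Gsr (chr8:33652523-33698163, plus strand), the reductase, was higher in both experiments, as Gclc and Gclm were. It measured 35.2, 36.04 and 40.9 RPM in Control and 48.7, 65.2 and 61.8 RPM in 2MUT. The groups are separate, with a ratio of 1.57 and a log2 fold change of 0.63 (SE 0.14, 95% interval 0.32 to 0.93). In 2-HG(-) it measured 23.6, 18.4 and 20.95 RPM, against 35.6, 46.4 and 53.5 RPM in 2-HG(+). These are separate as well, with a ratio of 2.15 and a log2 fold change of 1.06 (SE 0.16, 95% interval 0.70 to 1.42). The lowest treated value, 35.6 RPM, came from 2-HG(+) replicate 1, and without that library the log2 fold change was 1.22.

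**Figure D2:**
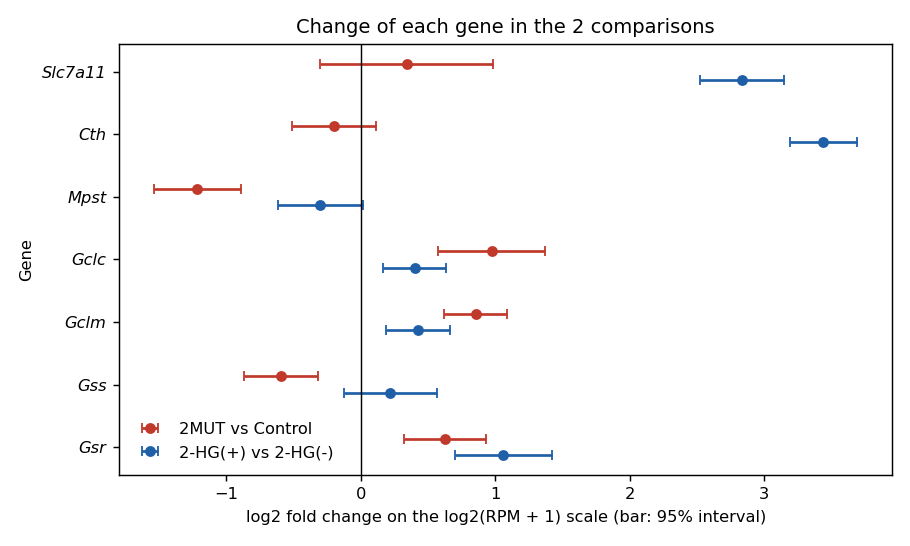
log2 fold change on the log2(RPM + 1) scale for the 7 genes above the filter on low values, with 2MUT against Control in red, 2-HG(+) against 2-HG(-) in blue and bars for the 95% interval. Slc7a11 (2.83) and Cth (3.44) lie far to the right with 2-HG and near 0 in 2MUT, Mpst (-1.22) and Gss (-0.59) lie left of 0 in 2MUT, and Gclc, Gclm and Gsr lie right of 0 in both.

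At the threshold used for all genes, a Benjamini-Hochberg adjusted p under 0.05 in limma, 3 of the 7 genes were called higher in 2MUT (Gclc, Gclm and Gsr) and 2 lower (Gss and Mpst). Of the 11065 genes tested, 33.8% were called in that comparison, 16.5% higher and 17.3% lower. With 2-HG, 5 of 7 were called higher (Slc7a11, Cth, Gclc, Gclm and Gsr), where 32.8% of 10384 genes were called, 16.1% higher and 16.7% lower. The count of those called higher with 2-HG was 3, without Gclc and Gclm, when 2-HG(-) replicate 3 or 2-HG(+) replicate 2 was left out and in the unmoderated per-gene test. Libraries of the groups did not overlap for those 5 genes in 2MUT, as for 47.5% of all genes (23.5% higher, 24% lower), nor for those 5 genes and Mpst with 2-HG, as for 46.3% (22.2% higher, 24.1% lower). Since the genes were chosen with these results known, nothing is read from these counts. Without Control replicate 3, the log2 fold change in 2MUT was 0.10 for Slc7a11, -0.26 for Cth, -1.23 for Mpst, 0.86 for Gclc, 0.89 for Gclm, -0.62 for Gss and 0.69 for Gsr. Without 2-HG(+) replicate 1, that with 2-HG was 2.82 for Slc7a11, 3.48 for Cth, -0.35 for Mpst, 0.40 for Gclc, 0.52 for Gclm, 0.11 for Gss and 1.22 for Gsr. No direction changed without them. Between replicates of a group, the coefficient of variation of the 7 genes ranged from 3.00% for Gclm in 2-HG(-) to 41.1% for Slc7a11 in Control.

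The experiments share no library, and the change in 2MUT minus that with 2-HG was estimated over all 12 libraries. The difference was -3.64 (SE 0.17) for Cth and -2.49 (SE 0.32) for Slc7a11 on the log2 scale, both larger with 2-HG. For Mpst it was -0.92 (SE 0.21) and for Gss -0.81 (SE 0.20). For Gclc and Gclm the estimates were 0.57 (SE 0.19) and 0.43 (SE 0.14), and ranged from 0.46 to 0.66 and from 0.34 to 0.50 with each library left out in turn. For Gsr the difference was -0.43 (SE 0.22, 95% interval -0.92 to 0.05), an interval that includes 0, and -0.59 without 2-HG(+) replicate 1. Stable expression and a 24 h treatment differ in duration, vector and selection, which cannot be told apart in this contrast.

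Regulators and partners of the set were measured next, in a list drawn up with earlier results of these data known. Slc3a2, the heavy chain that carries xCT to the membrane, measured 94.6, 107 and 90.96 RPM in 2-HG(-) and 144, 175 and 163 RPM in 2-HG(+). It rose by a log2 fold change of 0.71 (SE 0.11, limma adjusted p = 0.00108). In 2MUT its log2 fold change was -0.18 (SE 0.09, limma adjusted p = 0.153). The difference between the comparisons passed the threshold, at -0.90 (SE 0.14, limma adjusted p = 0.000264).

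Atf4 measured 399, 533 and 358 RPM in 2-HG(-) and 1250, 1189 and 1218 RPM in 2-HG(+). It rose by a log2 fold change of 1.52 (SE 0.14, limma adjusted p = 5.58e-05), with every treated library above every DMSO library. In 2MUT, Atf4 measured 644, 677 and 685 RPM against 559, 522 and 612 RPM in Control. The libraries are separate but the log2 fold change of 0.25 (SE 0.09) did not pass the test (limma adjusted p = 0.0517), and it passed without Control replicate 3 (0.31, limma adjusted p = 0.0253), with the filter at 10 RPM (limma adjusted p = 0.0467) and with DESeq2 (adjusted p = 0.0441).

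Of the genes named from this list, 3 others rose by larger amounts than Atf4 with 2-HG. Trib3, a pseudokinase that restrains ATF4, went from 2.29, 0.936 and 1.38 RPM to 14.1, 18.6 and 16.3 RPM, a log2 fold change of 2.80 (SE 0.20, limma adjusted p = 1.28e-05). Chac1, an enzyme that degrades glutathione in the cytosol, went from 20.7, 10.9 and 15.1 RPM to 75.4, 64.2 and 73.9 RPM, a log2 fold change of 2.16 (SE 0.20, limma adjusted p = 4.98e-05). Ddit3, which encodes the stress factor CHOP, went from 39.4, 56.4 and 36.9 RPM to 176, 168 and 183 RPM, a log2 fold change of 1.99 (SE 0.15, limma adjusted p = 1.65e-05).

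In 2MUT the same 3 genes did not move together. Ddit3 fell from 182, 96.4 and 147 RPM in Control to 56.2, 51.1 and 62.7 RPM, a log2 fold change of -1.26 (SE 0.19, limma adjusted p = 0.000549). Chac1 rose from 21.8, 30.1 and 29.8 RPM to 40.2, 47.4 and 41.7 RPM, a log2 fold change of 0.66 (SE 0.15, limma adjusted p = 0.00719). Trib3 was at 2.22 to 3.85 RPM in Control and 3.25 to 7.29 RPM in 2MUT, a log2 fold change of 0.53 (SE 0.28, limma adjusted p = 0.167).

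**Figure D3:**
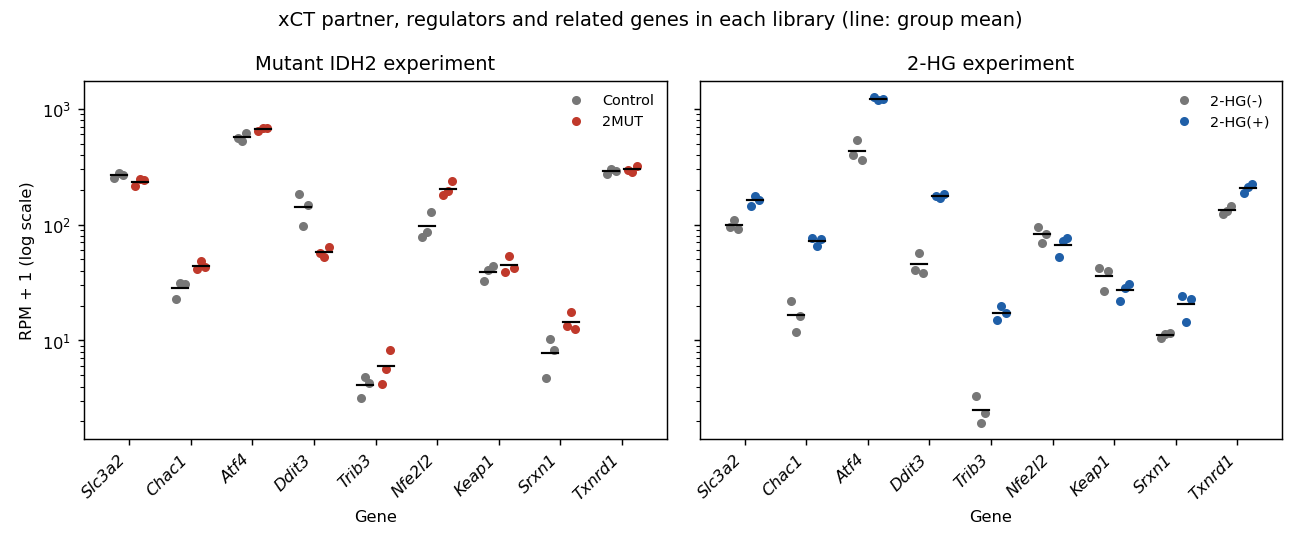
RPM + 1 on a log axis in each library for the xCT partner Slc3a2, the regulators Atf4, Ddit3, Trib3, Nfe2l2 and Keap1, and Chac1, Srxn1 and Txnrd1, with a line at each group mean. Ddit3 lies lower in 2MUT than in Control (log2 fold change -1.26) and higher in 2-HG(+) than in 2-HG(-) (1.99), and Nfe2l2 separates Control from 2MUT (1.09).

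Nfe2l2, which encodes NRF2, measured 76.5, 85.2 and 127 RPM in Control and 179, 194 and 236 RPM in 2MUT. It rose by a log2 fold change of 1.09 (SE 0.17, limma adjusted p = 0.000744). With 2-HG its ranges overlapped, at 68.1 to 94.8 RPM and 51.7 to 74.9 RPM, and the log2 fold change was -0.31 (SE 0.16, limma adjusted p = 0.174). Between the comparisons the change differed by 1.41 (SE 0.27, limma adjusted p = 0.00117). Keap1, the adaptor that targets NRF2 for degradation, passed the test in neither, with log2 fold changes of 0.20 (SE 0.16, limma adjusted p = 0.365) in 2MUT and -0.40 (SE 0.19, limma adjusted p = 0.14) with 2-HG. Without 2-HG(-) replicate 2 the latter was -0.61 (limma adjusted p = 0.0218).

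Among other genes known to respond to NRF2, Srxn1, which repairs oxidized peroxiredoxins, rose in both comparisons. Its log2 fold changes were 0.96 (SE 0.27, limma adjusted p = 0.0188) in 2MUT and 0.85 (SE 0.19, limma adjusted p = 0.00773) with 2-HG. The first of these fell to 0.64 without Control replicate 1 (limma adjusted p = 0.0521) and to 0.82 without 2MUT replicate 2 (limma adjusted p = 0.0786). Txnrd1, cytosolic thioredoxin reductase, rose with 2-HG (log2 fold change 0.64, SE 0.11, limma adjusted p = 0.00164) and not detectably in 2MUT (0.06, SE 0.09, limma adjusted p = 0.653). The difference between those changes was -0.58 (SE 0.14, limma adjusted p = 0.00512). Srxn1 and Txnrd1 were fixed by name and do not stand for all such genes, which were not assessed as a set. Most called genes among the glutathione peroxidases and transferases went down with 2-HG, 7 of 12 lower against 1 higher. Gstm1, chosen after its value was seen, was at a log2 fold change of -1.45 there (limma adjusted p = 2.78e-05).

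A wider list of 95 genes of cysteine and glutathione metabolism, which excludes the 8 genes, was listed in full in the first table and for 83 genes in the second. In 2MUT, 70 passed the filter of a mean of 1 RPM, and 18 were higher and 13 lower, or 44.3% called against 33.8% of all genes tested. Their median log2 fold change was 0.18, against 0.01 for all genes. With 2-HG, 70 passed, 23 were higher and 20 lower, or 61.4% against 32.8%, with medians of -0.04 and -0.02. The difference between the comparisons was called for 44 of 68 genes (64.7%), 23 larger and 21 smaller in 2MUT, against 39.4% of 9594 genes, 19.9% larger and 19.5% smaller. The share in 2MUT was not above that of all genes without 2MUT replicate 2, with 9 higher and 7 lower (22.9% against 24.9%), nor in an unmoderated per-gene test, with 7 and 3 (14.3% against 20.3%). With 2-HG, the counts were 20 and 13 without 2-HG(-) replicate 1 (47.8% against 25%) and 14 and 13 in the unmoderated test (38.6% against 21.5%). The list was drawn up with earlier results of these data known, so no enrichment is read from these shares. Of all genes tested, 16.5% were called higher and 17.3% lower in 2MUT, and 16.1% and 16.7% with 2-HG. The counts for each group of the list below stand beside these shares and were not tested.

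Cysteine can also enter through neutral amino acid transporters or be stored in lysosomes. Of 6 genes for transport of cystine and cysteine outside xCT, the heavy chains Slc3a2 and Slc3a1 among them, 3 were higher and 1 lower in 2MUT, and 2 were higher and 1 lower with 2-HG. Slc1a5, a glutamine transporter, fell in 2MUT (log2 fold change -0.77, limma adjusted p = 0.0188) and rose with 2-HG (0.56, limma adjusted p = 0.0103). Its fall did not pass the test without 2MUT replicate 2 (-0.66) or 3 (-0.72) or Control replicate 2 (-0.64) or with no filter (limma adjusted p = 0.0563), nor its rise without 2-HG(-) replicate 3 (0.47). Slc1a4, an alanine, serine and cysteine transporter, measured a log2 fold change of 1.22 in 2MUT (limma adjusted p = 0.0478). Control replicate 2 measured 42.02 RPM against 203 and 168 RPM in the others. Without that library the log2 fold change was smaller, 0.52, and passed the test (limma adjusted p = 0.00755). The rise of Slc1a4 missed the threshold without any single 2MUT library (1.18 to 1.26), and also with edgeR (adjusted p = 0.0842), DESeq2 (adjusted p = 0.26), median-of-ratios scaling, an added value of 0.1, no filter and a filter at 10 RPM (limma adjusted p from 0.0524 to 0.0886). Mfsd12, the lysosomal cysteine importer, fell with 2-HG by 0.55 on the log2 scale (limma adjusted p = 0.0497) at 2.45 to 5.88 RPM, and did not pass the test when 2-HG(-) replicate 1 (-0.51) or 3 (-0.48) or 2-HG(+) replicate 1 (-0.39) or 2 (-0.54) was left out, nor with no filter (limma adjusted p = 0.122) or an added value of 0.1 (limma adjusted p = 0.0557).

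The methionine cycle supplies homocysteine to transsulfuration. Of 8 genes tested in 2MUT, 1 was higher and 3 lower, and of 7 tested with 2-HG, 2 were higher and the others did not pass the test. Mat2a, which makes S-adenosylmethionine, rose in 2MUT (log2 fold change 0.88, SE 0.10, limma adjusted p = 0.000108) and was at -0.05 (limma adjusted p = 0.792) with 2-HG, a difference of 0.93 (limma adjusted p = 0.000741). Ahcyl2, a relative of the hydrolase that releases homocysteine, fell in 2MUT (-0.73, limma adjusted p = 0.00213). Mtr, methionine synthase, which returns homocysteine to methionine, rose with 2-HG (0.78, limma adjusted p = 0.00037).

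The group of cysteine and sulfide oxidation, which also holds neighbouring steps, gave 1 higher and 2 lower of 7 genes in 2MUT. With 2-HG it gave 2 higher and 3 lower of 6. Csad, which leads to taurine, rose in 2MUT (0.39, limma adjusted p = 0.0397) and fell with 2-HG (log2 fold change -1.10, limma adjusted p = 0.00266). The rise did not pass the test without 2MUT replicate 1 (0.40) or 2 (0.30) or Control replicate 1 (0.31), or with no filter (limma adjusted p = 0.0544). Got1, a cytosolic aminotransferase, fell in 2MUT (-0.52, limma adjusted p = 0.0118) and rose with 2-HG (0.77, limma adjusted p = 0.00199). Tst, a thiosulfate sulfurtransferase related to Mpst, fell in 2MUT (-0.82, limma adjusted p = 0.033) at 2.20 to 8.69 RPM, and by 0.51 on the log2 scale without 2MUT replicate 2 (limma adjusted p = 0.112). Its fall also missed the threshold without Control replicate 1 (-0.85) or 2 (-0.75), or with no filter (limma adjusted p = 0.0833).

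Among 9 genes of glutathione breakdown tested with 2-HG, 2 were higher and 5 lower. Chac1 led the rises, and Anpep, an aminopeptidase of the cell surface that can split cysteinylglycine, fell from 12.7 to 13.2 RPM to 1.32 to 3.53 RPM (log2 fold change -2.03, limma adjusted p = 0.000164). In 2MUT, 3 of 8 were higher and 1 lower. Dpep2, a membrane dipeptidase, rose there from 3.40 to 4.92 RPM to 10.4 to 15.3 RPM (1.48, limma adjusted p = 0.000349), and Lap3, a cytosolic leucine aminopeptidase, fell (-0.50, limma adjusted p = 0.00169). Ggct, which acts on γ-glutamyl dipeptides, had log2 fold changes of 0.21 (limma adjusted p = 0.364) in 2MUT and 0.22 (limma adjusted p = 0.472) with 2-HG.

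Of 12 glutathione peroxidases and transferases tested with 2-HG, 7 were lower and 1 higher, where 16.7% of all genes were lower and 16.1% higher. Their median log2 fold change was -0.54, against -0.02 for all genes. Gstt1, a theta-class transferase, fell from 22.3 to 36.4 RPM to 5.49 to 9.93 RPM (-1.83, limma adjusted p = 0.000292), while Gsto1, an omega-class transferase, rose (0.51, limma adjusted p = 0.0094). In 2MUT, 2 of 12 were higher and 3 lower, with a median of -0.00. Gpx1, the main cytosolic glutathione peroxidase, rose there (0.38, limma adjusted p = 0.0122), though not past the threshold without 2MUT replicate 2 (0.34), and Gsta4, which conjugates products of lipid peroxidation, fell (-0.72, limma adjusted p = 0.00122). Transferases of a class resemble each other in sequence, so reads may be shared between them.

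Of 4 glutaredoxin and glyoxalase genes tested, 3 were higher in 2MUT and the other did not pass the test, and 2 were higher and 1 lower with 2-HG. Glrx2, the mitochondrial glutaredoxin, rose in 2MUT (0.48, limma adjusted p = 0.00636). The other 2 rises there were Glrx (0.31) and Esd (0.35), and neither passed the test without 2MUT replicate 3 (0.28 for both). Esd also missed it without 2MUT replicate 1 (0.34) or Control replicate 1 (0.32) or 2 (0.27) or with no filter (limma adjusted p = 0.0703), and Glrx without 2MUT replicate 2 (0.27) or Control replicate 2 (0.22). Esd, which hydrolyses S-formylglutathione, rose with 2-HG (1.05, limma adjusted p = 0.000116), and Glrx, the cytosolic glutaredoxin, fell (-0.91, limma adjusted p = 5.25e-05). Of 5 transport genes for glutathione and its conjugates, 1 was higher and 1 lower in 2MUT, and 4 were higher with 2-HG. Abcc4, an exporter of conjugates, rose in both, by 1.21 (limma adjusted p = 0.000533) and 1.07 (limma adjusted p = 9.4e-05). Slc25a40, a carrier of glutathione into mitochondria, fell in 2MUT (-0.63, limma adjusted p = 0.0169), which did not pass the test without 2MUT replicate 1 (-0.60) or 2 (-0.59) or Control replicate 1 (-0.50).

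In the thioredoxin system, 1 of 7 genes was higher and 1 lower in 2MUT, and 3 were higher and 1 lower with 2-HG. Txn1, thioredoxin itself, fell in 2MUT (-0.43, limma adjusted p = 0.00608), and Txnip, its inhibitor, fell with 2-HG from 156 to 235 RPM to 59.3 to 98.01 RPM (-1.28, limma adjusted p = 0.00105). Among suppliers of NADPH, the reductant that Gsr uses, 2 of 5 were higher in 2MUT and the others did not pass, and 1 of 6 was higher and 2 lower with 2-HG. Pgd, of the pentose phosphate pathway, rose in 2MUT from 60.5 to 82.8 RPM to 153 to 195 RPM (1.29, limma adjusted p = 4.99e-05). With 2-HG its log2 fold change was 0.00 (SE 0.20, limma adjusted p = 0.998), and the difference was 1.28 (SE 0.27, limma adjusted p = 0.00175). Me1, malic enzyme, rose with 2-HG (0.69, limma adjusted p = 0.0139), and H6pd, which makes NADPH in the endoplasmic reticulum, fell (-0.33, limma adjusted p = 0.0457), though not past the threshold without 2-HG(-) replicate 1 (-0.33) or 3 (-0.29) or 2-HG(+) replicate 1 (-0.25) or 2 (-0.33), nor with no filter (limma adjusted p = 0.0625).

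**Figure D4:**
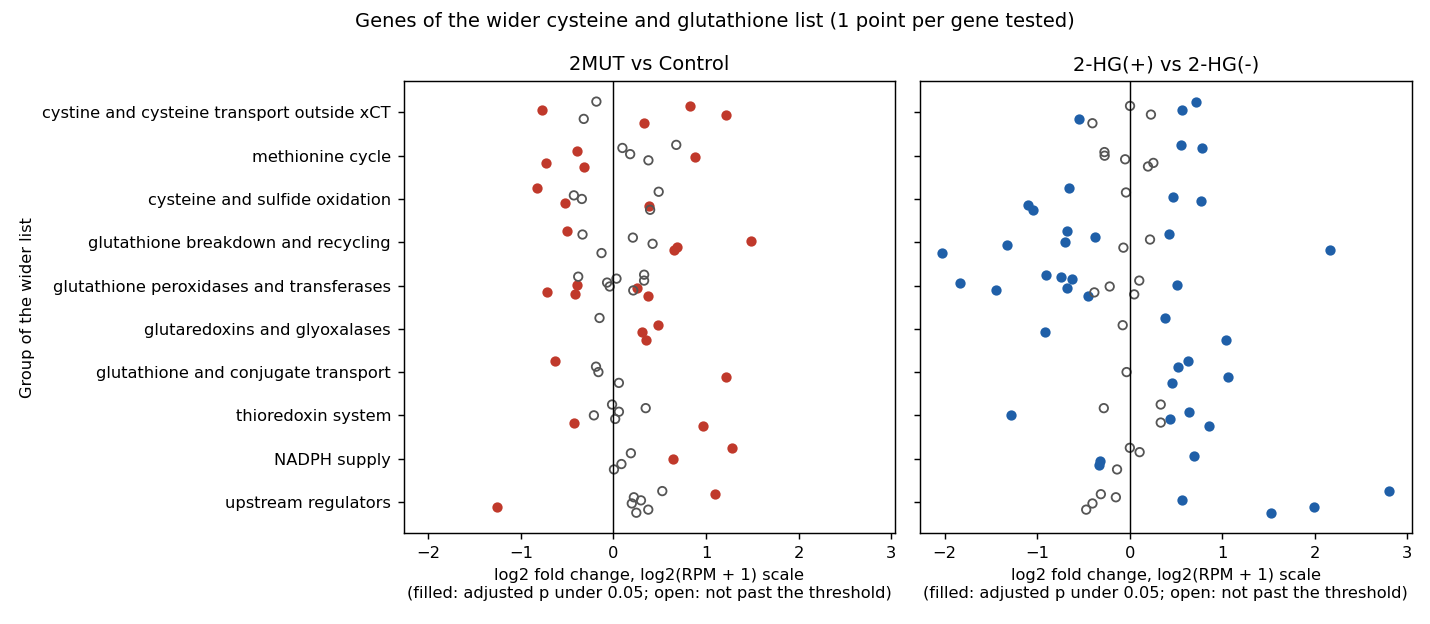
log2 fold change of each tested gene of the wider list, by group, with 2MUT against Control on the left and 2-HG(+) against 2-HG(-) on the right, filled where the adjusted p is under 0.05. With 2-HG, 7 of 12 peroxidases and transferases lie left of 0 as filled points and 1 right, and 4 of 8 regulators lie right of 0. In 2MUT, 3 of the 12 are filled on the left and 2 on the right, and 1 of the 8 regulators on each side. Of all genes, 16.1% were called higher and 16.7% lower with 2-HG, and 16.5% and 17.3% in 2MUT.

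Genes whose levels followed Slc7a11 and Cth most closely were ranked by Pearson r of log2(RPM + 1), centred within each table, over the 12 libraries, among genes averaging 10 RPM or more in each table. The points fall into the 4 groups, so r mostly repeats the group means and is a description. For Slc7a11 the 5 closest were the phosphate transporter Slc20a1 (r = 0.978), the chromatin remodelling subunit Phf10 (0.977), the cysteinyl-tRNA synthetase Cars (0.973), the pseudouridine synthase Pus1 (0.971) and the serine synthesis enzyme Psat1 (0.964). For Cth they were the serine synthesis enzyme Psph (r = 0.992), the aminotransferase Bcat1 (0.986), Slc20a1 (0.985), Phf10 (0.984) and the glycogen-binding protein Stbd1 (0.982). Slc7a11 and Cth had r = 0.961 with each other. Among these genes the log2 fold change with 2-HG ranged from 0.75 for Pus1 to 3.17 for Stbd1, and that in 2MUT from -0.22 for Psph to 0.24 for Cars.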

How the data were processed

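RNA was measured in 12 MEF libraries, 3 in each of 4 groups taken from the sample labels. The authors prepared Ion AmpliSeq libraries, used TMAP to align reads to the vendor's AmpliSeq transcript reference, counted reads on each target and deposited RPM in a table for each experiment. The genome build behind that reference is not given in the sources used here, and the transgene was not analysed here. The 8 genes and the lists were chosen with earlier results of these data known. Changes were fitted with limma 3.58.1 in R 4.3.3 after adding 1 to each RPM and taking log2, allowing for a trend of variance with level, for genes averaging 1 RPM or more over the 6 libraries of a comparison, at a Benjamini-Hochberg threshold of 0.05. The difference between the comparisons was a contrast over the 12 libraries for 9594 genes tested in both tables. It left out the 27 names in each table that had been turned into dates and the 4 entries with a repeated name.

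Dividing each deposited RPM by the worth of 1 read gave whole reads for 100% of values within 0.1 read. On these reads edgeR 4.0.16 called 1818 genes higher and 1947 lower in 2MUT and 1794 and 1752 with 2-HG, and DESeq2 1.42.0 called 1838 and 1910, and 1901 and 1765. Other alternatives were an added value of 0.1, no filter, a filter at 10 RPM, median-of-ratios scaling, an unmoderated per-gene test, a block for the replicate number, and fits leaving out 1 library each. On simulated data made from the means and depths, 100 of 106 genes changed by 1 on the log2 scale were called in the 2MUT design and 91 of 94 in the 2-HG design, with 4 of 10876 and 14 of 10165 unchanged genes called. The spread between simulated replicates was a fixed setting shared by all genes and was not estimated from these libraries. These counts therefore need not hold for the real data. Of the wider list, the gene with the largest called change in each direction of each group is named, plus 11 genes fixed by name. Gene positions come from GENCODE M21 and upstream sequences from RefSeq. Tables were handled with pandas 2.3.3 in Python 3.11.15 and figures were made in matplotlib 3.10.9. Protein and quantitative PCR data were not analysed here.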

Additional observations from a re-analysis of the deposited data

Results flagged for a closer look

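In groups of 3 libraries no single library was tested as an outlier. Of the genes named in the report, those below changed past the threshold in opposite directions in 2MUT and with 2-HG, and the difference between those changes also passed the limma test over 12 libraries. Each value is the log2 fold change in 2MUT minus that with 2-HG. In the wider list, Idh1 (0.97, adjusted p = 0.000587) and Gstm2 (0.93, adjusted p = 0.000327), which the naming rule does not take and which were chosen after their values were seen, met the same conditions.

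Ddit3 had the widest gap, with a difference of -3.25 (SE 0.28, adjusted p = 1.16e-06), from a fall of 1.26 on the log2 scale in 2MUT (-1.26) and a rise of 1.99 with 2-HG. Dpep2 differed by 2.18 (SE 0.26, adjusted p = 2.07e-05), but at 0.661 to 2.18 RPM in the 2-HG experiment. Slc1a5 differed by -1.33 (SE 0.25, adjusted p = 0.000781). The difference of Got1 was -1.29 (SE 0.19, adjusted p = 0.000142). For Slc25a40 it was -1.26 (SE 0.21, adjusted p = 0.000344), with a rise of 0.63 with 2-HG (adjusted p = 0.0054).

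Csad differed by 1.49 (SE 0.26, adjusted p = 0.000519). Glrx gave 1.23 (SE 0.14, adjusted p = 1.43e-05), although its rise in 2MUT, 0.31, was close to the threshold (adjusted p = 0.0489) and did not pass it without 2MUT replicate 2 (0.27) or 3 (0.28) or Control replicate 2 (0.22), nor with edgeR (adjusted p = 0.0606), median-of-ratios scaling (adjusted p = 0.0569), no filter (adjusted p = 0.0784) or an added value of 0.1 (adjusted p = 0.0516). Gpx1 differed by 0.83 (SE 0.17, adjusted p = 0.00181), and its fall with 2-HG, -0.45, did not pass the test without 2-HG(-) replicate 1 (-0.36) or 3 (-0.45) or 2-HG(+) replicate 1 (-0.34). Gsto1 differed by -0.91 (SE 0.16, adjusted p = 0.000652), and its fall in 2MUT, -0.39, did not pass the test without 2MUT replicate 1 (-0.30). Lap3 differed by -0.92 (SE 0.12, adjusted p = 4.54e-05), with a rise of 0.42 with 2-HG (adjusted p = 0.00574).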

How the results depend on the processing

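The direction of every change of the 7 genes above the filter held under each alternative run. The fold changes moved by less than the spread between replicates, except that of Cth with 2-HG, 3.56 with edgeR and 3.57 with DESeq2 against 3.44. The unmoderated test called fewer genes, 1021 higher and 1223 lower in 2MUT and 1098 and 1139 with 2-HG, and within the wider list 7 and 3 and 14 and 13. It also ended the calls of Gsr in 2MUT and of Gclc and Gclm with 2-HG, of 15 named genes of the list in 2MUT (Chac1, Csad, Ddit3, Esd, Glrx, Got1, Gpx1, Gsto1, Nfe2l2, Slc1a4, Slc1a5, Slc25a40, Srxn1, Tst and Txn1, adjusted p from 0.0514 to 0.287) and of 7 with 2-HG (Csad, Gpx1, Gsto1, H6pd, Me1, Mfsd12 and Srxn1, from 0.0608 to 0.154). Leaving out 1 library gave 9 to 19 higher and 7 to 12 lower genes of the list in 2MUT, and 18 to 23 and 13 to 21 with 2-HG. Fewer samples then enter each fit.

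Replicate numbers are shared between groups. Deviations of same-numbered libraries had correlations of 0.071, 0.029 and 0.032 in the mutant IDH2 experiment and -0.457, -0.158 and 0.057 in the 2-HG experiment. Not every library correlated best with its own number, and differently numbered libraries reached 0.413 and 0.48 in the 2-HG experiment. With 3 libraries per group these correlations cannot settle whether libraries were paired, and the labels give only a number. With the replicate number as a block, 1911 and 1987 genes were called in 2MUT and 1217 and 1286 with 2-HG, and of the list 20 and 13, 21 and 15, and for the difference 20 and 20. Among named genes of the list, the block ended the calls of Glrx in 2MUT (limma adjusted p = 0.0546) and of Gpx1 (0.0622), H6pd (0.093) and Mfsd12 (0.0657) with 2-HG. In the difference it ended those of Glrx2 (0.0667) and H6pd (0.0597), and Atf4 in 2MUT passed (0.0401). For the 8 genes, calls in the difference are not given here. Slc7a11 had only 7 to 25 reads per library in the mutant IDH2 experiment, so its fold change there is imprecise.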
